A study of Mus musculus with 11 samples.

Results

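The 42 genes described here build the machinery that copies DNA in S phase and separates the copies in mitosis. They were taken as a named list of genes, and every probe set annotated with 1 gene symbol, and that symbol on the list, was included. Of the 42 genes, 41 had probe sets, and Ccnb1 had none under its symbol in the array annotation used here. The 41 genes had 96 probe sets, out of 18193 genes and 34945 probe sets with 1 gene symbol in all. Where a gene had several probe sets, the brightest by mean level over all 11 arrays stands for it, and levels are log2 values made by RMA, on which 1 unit is a doubling.

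All cells came from mice with mixed C57/Bl and BlackSwiss ancestry and were profiled on Affymetrix expression arrays. Induced pluripotent stem cells derived from ventricular myocytes (ViPSC), others derived from tail tip fibroblasts (TiPSC) and embryonic stem cells matched to them genetically (ESC) had 3 arrays per group. The source cells were isolated on postnatal day 1. They are called VM for the ventricular myocytes and TTF for the fibroblasts of the tail tip, and each has a single array, so without replicates. All 9 pluripotent cultures grew with serum and LIF on irradiated feeder fibroblasts, and quickly attaching cells were left behind in a plating step ahead of RNA extraction. Separate cultures or clones are not stated for the 3 arrays of a group, so p values measure only the spread between these arrays. Precision is limited by how few arrays there are.

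Replication starts when Cdc6 helps to load the Mcm helicase on origins. Cdc45 and the GINS complex then activate the helicase, and polymerases follow with the Pcna clamp. Later in the cycle Cdk1 with cyclins A and B starts mitosis, the chromosomal passenger complex and the Bub and Mad proteins watch over the attachment of chromosomes to the spindle, and kinesin motors move them. Transcription of these genes is periodic: E2F factors drive many replication genes, and late genes often carry CCAAT boxes, bound by NF-Y, and a cell cycle homology region (CHR), read by the DREAM and Myb-MuvB complexes. Mouse pluripotent cells cycle fast and spend much of their time in S phase, whereas cardiomyocytes leave the cell cycle soon after birth.

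The promoters of these genes carried the elements named above in different shares. RefSeq windows of 300 bases, from 250 before to 50 after the annotated start (build GRCm38.p6), were matched for 34 of the 41 genes. The other genes are Aurkb, Ccna2, Foxm1, Gins1, Kif20a, Mcm4 and Pole. On both strands, TTTGAA was searched as the CHR, CCAAT as the CCAAT box, and TTTCGCGC, TTTGGCGC or TTTCCCGC as the E2F motif. The CHR letters stood in 12 of 16 mitosis genes (75%), in 3 of 16 replication genes (18.8%) and in 13.3% of 14367 genes of the array with a window. CCAAT stood in 14 of 16 mitosis genes (87.5%), in 12 of 16 replication genes (75%) and in 38.2% of the array's genes. An E2F motif stood in 1 of 16 mitosis genes (6.25%), in 6 of 16 replication genes (37.5%) and in 2.92% of the array's genes. Within 50 bases of the start, the CHR letters stood in 11 of 16 mitosis genes (68.8%), 1 of 16 replication genes (6.25%) and 3.32% of the array's genes. These are matches of letters, and no binding was measured.

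These arrangements are shown by 6 promoters. Ccnb2 (cyclin B2) and Cdc20 (the activator of the anaphase-promoting complex) stand for the late genes, Mcm6 and Pcna for the replication genes, and Birc5 (survivin) for a late gene without any of the motifs. Top2a (topoisomerase II alpha) was added after its values were seen, because it differed between pluripotent groups. The windows are chr9:70421505-70421804 (minus strand) for Ccnb2, chr4:118437294-118437593 (minus strand) for Cdc20, chr1:128359656-128359955 (minus strand) for Mcm6, chr2:132253131-132253430 (minus strand) for Pcna, chr11:117848987-117849286 (plus strand) for Birc5 and chr11:99024140-99024439 (minus strand) for Top2a. Each is written along the gene's own strand, and capitals mark every match of the motifs above, as the reverse complement where the match is on the opposite strand.
Ccnb2: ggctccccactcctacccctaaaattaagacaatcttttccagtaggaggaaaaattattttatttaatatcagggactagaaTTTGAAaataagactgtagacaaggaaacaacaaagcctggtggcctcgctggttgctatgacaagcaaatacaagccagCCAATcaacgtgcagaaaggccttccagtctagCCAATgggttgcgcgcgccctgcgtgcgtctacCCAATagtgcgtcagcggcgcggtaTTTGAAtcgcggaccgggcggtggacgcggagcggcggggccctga
Cdc20: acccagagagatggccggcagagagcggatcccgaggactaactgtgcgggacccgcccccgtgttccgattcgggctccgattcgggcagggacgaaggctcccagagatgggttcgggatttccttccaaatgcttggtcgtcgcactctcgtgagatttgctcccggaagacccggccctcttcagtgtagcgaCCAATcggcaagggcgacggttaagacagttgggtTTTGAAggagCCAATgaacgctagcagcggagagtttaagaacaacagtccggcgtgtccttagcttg
Mcm6: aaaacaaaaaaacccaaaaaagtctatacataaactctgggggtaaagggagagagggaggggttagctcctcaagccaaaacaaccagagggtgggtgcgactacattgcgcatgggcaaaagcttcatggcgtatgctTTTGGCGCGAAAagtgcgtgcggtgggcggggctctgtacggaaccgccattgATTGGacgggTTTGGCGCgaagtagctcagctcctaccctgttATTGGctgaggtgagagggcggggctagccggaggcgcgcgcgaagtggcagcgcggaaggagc
Pcna: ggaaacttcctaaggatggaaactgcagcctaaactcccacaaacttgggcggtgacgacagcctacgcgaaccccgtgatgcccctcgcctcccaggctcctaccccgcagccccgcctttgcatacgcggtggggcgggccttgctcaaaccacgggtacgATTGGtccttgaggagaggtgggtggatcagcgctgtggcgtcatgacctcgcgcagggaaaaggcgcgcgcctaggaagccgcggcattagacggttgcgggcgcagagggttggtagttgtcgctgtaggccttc
Birc5: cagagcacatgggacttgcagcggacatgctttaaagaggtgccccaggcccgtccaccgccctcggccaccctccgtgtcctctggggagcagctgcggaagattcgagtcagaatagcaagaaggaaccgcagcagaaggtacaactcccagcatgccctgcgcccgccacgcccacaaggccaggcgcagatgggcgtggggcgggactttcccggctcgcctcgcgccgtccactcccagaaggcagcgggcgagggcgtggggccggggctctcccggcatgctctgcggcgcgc
Top2a: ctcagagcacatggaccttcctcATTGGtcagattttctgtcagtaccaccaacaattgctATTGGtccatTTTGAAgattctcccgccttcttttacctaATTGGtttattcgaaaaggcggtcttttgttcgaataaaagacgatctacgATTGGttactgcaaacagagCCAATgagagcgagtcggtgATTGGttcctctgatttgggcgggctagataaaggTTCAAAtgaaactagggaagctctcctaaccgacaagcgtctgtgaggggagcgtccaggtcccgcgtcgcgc
Ccnb2 held 3 CCAAT boxes on its own strand and 2 CHR matches, of which the second lies at the start. Cdc20 held 2 CCAAT boxes and 1 CHR match between them. Mcm6 held 2 CCAAT boxes and 3 E2F matches, of which 2 on opposite strands overlap in the longest run of capitals. Pcna held a single CCAAT box on the opposite strand. Top2a held 6 CCAAT boxes and 2 CHR matches.

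The arrays carried the markers of the labelled cells. All 8 pluripotency markers, Pou5f1 and Nanog among them, were above a level of 7 in each of the 9 pluripotent arrays, and 1 of 8 was in VM and 0 of 8 in TTF. All 10 cardiomyocyte markers were above 7 in VM, with a median of 14.25, and none was in the other 10 arrays. The VM array also held other cells' transcripts. In VM 6 of 10 fibroblast markers and 8 of 8 endothelial markers were above 7, with medians of 9.65 and 10.54, against 13.29 and 4.18 in TTF. The summed linear level of the fibroblast list was 25896 in VM, 115534 in TTF and between 1662 and 3561 in the pluripotent arrays. The part of these cells in the results was not tested, and in such bulk samples fewer cycling cells and less RNA per cell cannot be told apart.

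By its brightest probe set, every measured gene of replication and mitosis was higher in the induced cells than in their source cell, and with the mean of all probe sets Cenpa was the exception in ViPSC. In ViPSC, 36 of 41 genes were at least 1 log2 unit above VM in all 3 arrays and 0 were as far below, where 16.7% of all genes were higher and 13.8% lower by that rule. In TiPSC, 38 of 41 were that far above TTF and 0 below, where 13.3% of all genes were higher and 13.1% lower. The median difference was 2.21 log2 units for ViPSC minus VM, a 4.64-fold higher level, with a range of 0.43 to 4.97. For TiPSC minus TTF it was 2.14, a 4.40-fold higher level, with a range of 0.50 to 3.44. The medians over all 18193 genes were 0.04 and 0.07. With 1 array of each source cell these differences have no replicate check and are given as values. Among the probe sets of these genes, 79 had a mean of at least 5. Of these 79, 78 were higher in ViPSC than in VM and 78 were higher in TiPSC than in TTF. Of the 17 dimmer probe sets, 10 were higher in ViPSC than in VM and 15 in TiPSC than in TTF. The mean was taken over all arrays, most of them pluripotent. This limit and the choice of the brightest probe set thus favour probe sets that are high in pluripotent cells.

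**Figure D1:**
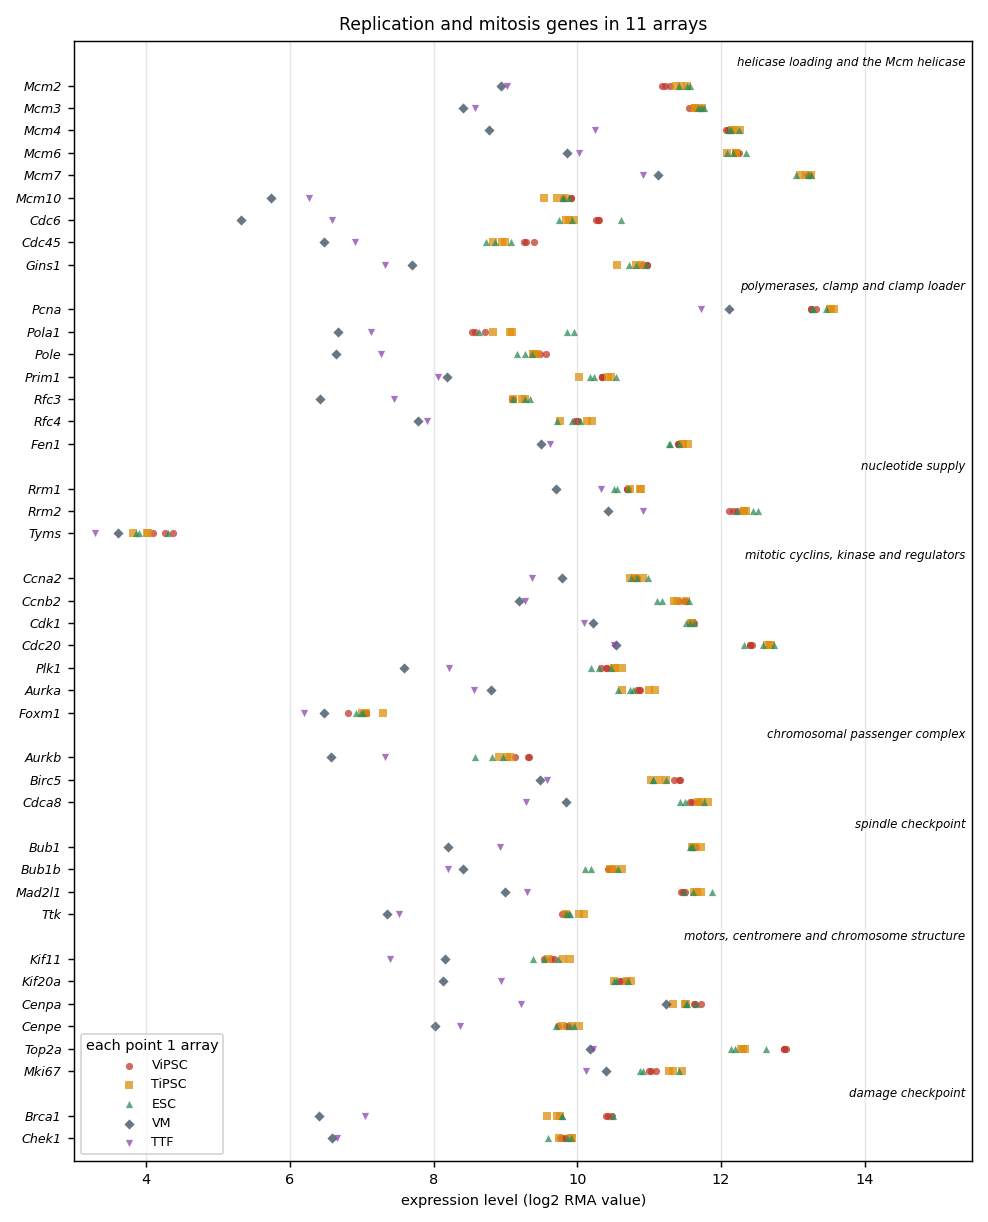
Level of 41 replication and mitosis genes (log2 RMA value, horizontal axis) in 11 arrays, grouped by role, where each point is 1 array. In most genes the 9 pluripotent arrays lie close together, and Pola1 is the most spread (8.54 to 9.95). They lie to the right of the VM and TTF arrays, though the VM value of Cenpa lies near the pluripotent values and Tyms is low in every array.

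By median, the helicase and its loaders showed the largest differences of the larger role groups. All 9 genes passed 1 log2 unit in both comparisons, with a median of 3.23 for ViPSC minus VM and 2.43 for TiPSC minus TTF. In the fibroblast lineage the spindle checkpoint was close behind (2.42). The 2 damage checkpoint genes had higher medians, 3.62 and 2.92. Cdc6, the loader of the helicase, was at 10.27, 10.30 and 10.29 in ViPSC, against 5.31 in VM. In the fibroblast lineage it was at 9.88, 9.85 and 9.96 in TiPSC, against 6.58 in TTF. Its difference of 4.97 ± 0.02 in ViPSC (SD over 3 arrays) was the largest of the 41 genes and amounts to 31.3-fold. This SD leaves out the spread of VM, and the VM value lies below the median gene of that array (5.97), where RMA compresses differences. Mcm10, which helps to switch on the loaded helicase, was at 9.81, 9.91 and 9.92 in ViPSC, against 5.74 in VM. It was at 9.72, 9.83 and 9.53 in TiPSC, against 6.27 in TTF. By the brightest of its 3 probe sets, Mcm10 in the induced arrays of both lineages thus lay more than 3 units above its source level. Under the alternative settings its difference fell as low as 2.00 for ViPSC minus VM and 1.66 for TiPSC minus TTF. Gins1, a subunit of the GINS complex, was at 10.89, 10.82 and 10.56 in TiPSC, against 7.32 in TTF. By the brightest probe sets this was the largest difference there (3.44 ± 0.18), and under the alternative settings it fell as low as 2.03. Mcm3 and Mcm4 are subunits of the hexameric helicase. Mcm4 was at 12.12, 12.08 and 12.10 in ViPSC, against 8.77 in VM, a difference of 3.33 ± 0.02. Mcm3 was at 11.64, 11.64 and 11.74 in TiPSC, against 8.58 in TTF, a difference of 3.09 ± 0.05. This Mcm3 difference fell as low as 2.45 under the alternative settings. The remaining genes, Mcm2, Mcm6, Mcm7 and Cdc45, differed by 2.02 to 2.84 in both lineages.

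The polymerase group was higher by a smaller and more even amount. All 7 genes passed 1 log2 unit in both comparisons, with medians of 2.16 for ViPSC minus VM and 1.87 for TiPSC minus TTF. Pcna, the sliding clamp, was at 13.25, 13.25 and 13.32 in ViPSC, against 12.11 in VM. It was at 13.57, 13.53 and 13.52 in TiPSC, against 11.73 in TTF. Its source level was thus already high, and its difference from VM (1.17) was the smallest of the group. The catalytic polymerase subunits Pola1 and Pole, the primase Prim1, the clamp loader subunits Rfc3 and Rfc4 and the flap nuclease Fen1 differed by 1.75 to 2.84 in the 2 lineages.

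Of the genes of nucleotide supply, 1 of 3 passed in each comparison, namely Rrm2, the cell-cycle-regulated small subunit of ribonucleotide reductase. Rrm2 was at 12.17, 12.22 and 12.12 in ViPSC, against 10.43 in VM, and at 12.32, 12.35 and 12.32 in TiPSC, against 10.91 in TTF. Rrm1, its large subunit, was at 10.70, 10.71 and 10.70 in ViPSC, against 9.71 in VM. It was at 10.89, 10.74 and 10.87 in TiPSC, against 10.33 in TTF, the smallest difference of that lineage (0.50 ± 0.08). Tyms, thymidylate synthase, was between 3.81 and 4.37 in the pluripotent arrays, 3.61 in VM and 3.29 in TTF. These values lie at the bottom of the scale, where RMA compresses differences, and say little about the gene. A further probe set, annotated to Tyms and its pseudogene together, was not used here.

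Among the mitotic regulators 6 of 7 genes passed in each comparison, with medians of 1.87 for ViPSC minus VM and 2.14 for TiPSC minus TTF. Cdk1, the kinase that starts mitosis, was at 11.57, 11.62 and 11.63 in ViPSC, against 10.22 in VM. It was at 11.60, 11.58 and 11.60 in TiPSC, against 10.09 in TTF. The 9 pluripotent arrays spanned 11.52 to 11.63 (SD 0.04), the least spread of the 41 genes. Foxm1, a transcription factor of late cell cycle genes, did not pass by its brightest probe set. It was at 7.06, 7.05 and 6.81 in ViPSC, against 6.47 in VM, and had a mean of 7.12 ± 0.15 in TiPSC (SD, n = 3), against 6.20 in TTF. A dimmer Foxm1 probe set did pass in both lineages: it was at 6.73, 6.83 and 6.73 in ViPSC, against 5.47 in VM, and at 6.74, 6.49 and 7.23 in TiPSC, against 5.38 in TTF. The count for Foxm1 thus depends on the probe set. The cyclins Ccna2 and Ccnb2, the kinases Plk1 and Aurka and the anaphase activator Cdc20 differed by 1.03 to 2.79.

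The spindle checkpoint, the passenger complex and the damage checkpoint passed in full. The 4 checkpoint genes Bub1, Bub1b, Mad2l1 and Ttk had medians of 2.47 for ViPSC minus VM and 2.42 for TiPSC minus TTF. Bub1, a checkpoint kinase at the kinetochore, was at 11.65, 11.61 and 11.62 in ViPSC, against 8.20 in VM, a difference of 3.43 ± 0.02. This Bub1 difference fell as low as 2.74 under the alternative settings. All 3 genes of the passenger complex, the kinase Aurkb and its partners Birc5 and Cdca8, passed in both comparisons, with differences of 1.55 to 2.68. Of the damage checkpoint, Brca1, which acts in homologous recombination, was at 10.42, 10.48 and 10.40 in ViPSC, against 6.41 in VM. Chek1, the kinase that restrains Cdk1 when forks stall, was at 9.91, 9.93 and 9.74 in TiPSC, against 6.66 in TTF. These values, from the brightest of 4 and 5 probe sets, place Brca1 16.3-fold above VM and Chek1 9.22-fold above TTF (4.03 and 3.20 log2 units). Under the alternative settings these log2 differences fell as low as 2.83 for Brca1 and 2.00 for Chek1.

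Of the motors and chromosome proteins, 4 of 6 passed for ViPSC minus VM and 6 of 6 for TiPSC minus TTF. Cenpa, the histone H3 variant of centromeres, had the smallest difference from the myocytes. It was at 11.64, 11.72 and 11.62 in ViPSC, against 11.23 in VM, and at 11.50, 11.51 and 11.33 in TiPSC, against 9.22 in TTF. The ViPSC arrays were thus 0.39 to 0.48 above VM, and VM was 2.01 above TTF. A second Cenpa probe set went further: it was at 6.31, 6.27 and 6.23 in ViPSC, against 8.16 in VM, and was the only one of the 79 brighter probe sets that was lower in ViPSC than in VM. With the mean of all Cenpa probe sets the gene was 0.49 lower in ViPSC than in VM (log2 difference -0.49). Mki67, which coats mitotic chromosomes and marks cycling cells, had a mean of 11.04 ± 0.04 in ViPSC (SD, n = 3), against 10.40 in VM. It was at 11.28, 11.33 and 11.46 in TiPSC, against 10.13 in TTF.

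**Figure D2:**
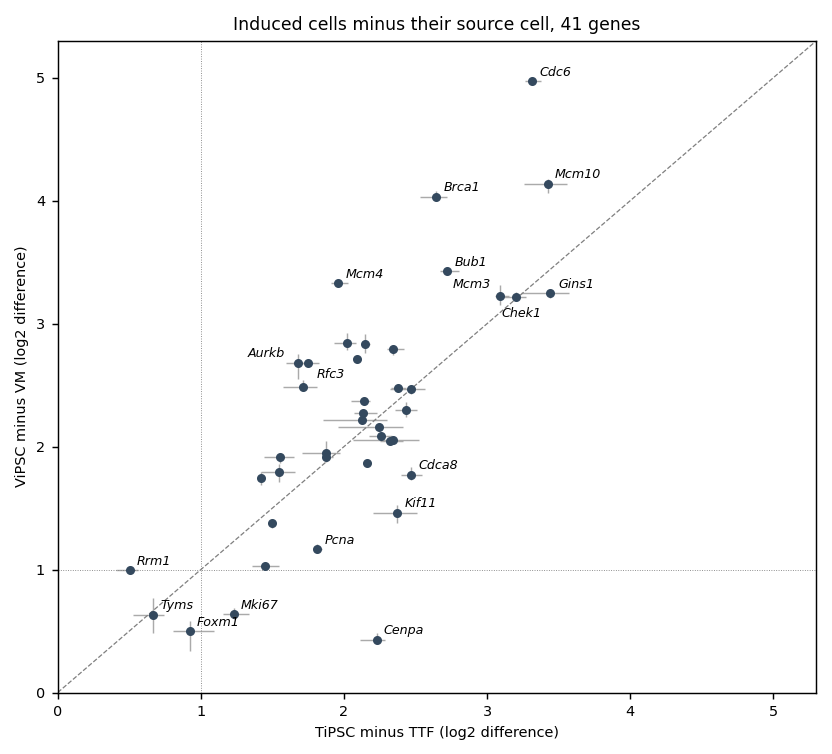
Difference of each induced line from its source cell for 41 genes (log2, ViPSC minus VM on the vertical axis, TiPSC minus TTF on the horizontal axis), where points are means over 3 induced arrays, bars the lowest and highest array, dotted lines 1 log2 unit and the dashed line equal differences. Every point is above 0 on both axes, Cdc6, Brca1 and Mcm4 lie above the dashed line and Cenpa far below it.

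The 2 source cells differed little in these genes. In VM against TTF, 1 of 41 genes was at least 1 log2 unit higher and 3 were lower, where 10.6% of all genes were higher and 13.6% lower. The median of the 41 genes was -0.12, with 15 positive and 26 negative differences, against -0.02 for all genes. Cenpa was the higher gene (2.01), and Mcm4 (-1.47), Cdc6 (-1.27) and Rfc3 (-1.04) were the lower ones. The VM level of Mcm4 was 8.77, against 10.24 in TTF, and that of Rfc3 was 6.42, against 7.45. Kif11, the kinesin that pushes spindle poles apart, Cdca8, Ccna2 and Pcna were higher in VM by 0.76, 0.56, 0.42 and 0.38.

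Whether the step from source to induced cell differed between the lineages was tested with limma over the 11 arrays, in which the lone VM and TTF arrays are assumed to vary like the others, so that the p values leave out the spread of the source cells. The difference of differences passed an adjusted p of 0.05 in 15 of 41 genes, where 33.6% of all genes did, so the share of these genes is close to that of the array. It was larger on the myocyte side in 11 and on the fibroblast side in 4. The largest were Cenpa at -1.80 ± 0.17 (SE, limma adjusted p = 3.26e-05), Cdc6 at 1.66 ± 0.37 (limma adjusted p = 0.00676), Brca1 at 1.39 ± 0.35 (limma adjusted p = 0.0129) and Mcm4 at 1.37 ± 0.15 (limma adjusted p = 9.77e-05).

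The pluripotent groups were close to each other. The median over the 41 genes was -0.04 for ViPSC minus TiPSC, 0.04 for ViPSC minus ESC and 0.04 for TiPSC minus ESC, against -0.03, -0.003 and 0.03 for all genes. Over the 9 arrays the genes had a median SD of 0.13, against 0.17 for all genes and 0.19 for the 7465 genes with a mean of at least 7. The comparisons share arrays (ViPSC or ESC or TiPSC), so they are not independent of each other.

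In ViPSC against TiPSC, 2 of 41 genes passed the test and both rose, where 5.63% of all genes passed and 3.20% were higher. Top2a, which untangles sister chromatids, was at 12.91, 12.87 and 12.88 in ViPSC, against 12.31, 12.34 and 12.28 in TiPSC. The groups did not overlap, and the difference was 0.58 ± 0.12 (SE, limma adjusted p = 0.0268, n = 3 each). Brca1 was at 10.42, 10.48 and 10.40 in ViPSC, against 9.72, 9.76 and 9.57 in TiPSC. Here too the groups did not overlap, with a difference of 0.75 ± 0.18 (SE, limma adjusted p = 0.0408, n = 3 each). Another probe set of Top2a gave 8.32, 7.89 and 8.06 in ViPSC against 6.97, 6.98 and 6.75 in TiPSC, and its limma adjusted p among all probe sets was 0.00289. The remaining Top2a probe set was lower in ViPSC than in TiPSC and did not pass. With the mean of its 3 probe sets Top2a was 0.54 higher (limma adjusted p = 0.00896). Of the other Brca1 probe sets none passed: they were 0.69, 0.60 and 0.14 higher (limma adjusted p = 0.0693, 0.121 and 0.730). With the mean of its probe sets Brca1 was 0.54 higher and did not pass (limma adjusted p = 0.0567). With any single ViPSC or TiPSC array left out, neither gene passed: the limma adjusted p was 0.0620 to 0.111 for Top2a and 0.0903 to 0.140 for Brca1. The 3 arrays of ViPSC and TiPSC did not overlap in 21 of the 41 genes, 9 higher and 12 lower in ViPSC, where 33.5% of all genes did not, 14.4% higher and 19.1% lower. Of the 12 lower, Pcna had the lowest adjusted p: it was 0.27 ± 0.08 lower in ViPSC (limma log2 difference -0.27, adjusted p = 0.0880), which does not pass. Cdc45 was 0.39 ± 0.10 higher (limma adjusted p = 0.0626) and did not pass either.

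In ViPSC against ESC, 1 of 41 genes passed, where 2.14% of all genes did. This was Top2a, at 12.91, 12.87 and 12.88 in ViPSC, against 12.20, 12.14 and 12.62 in ESC. ESC 3 was nearest to ViPSC but did not reach it, and the difference was 0.57 ± 0.12 (SE, limma adjusted p = 0.0486, n = 3 each). It no longer passed when ESC 2 or any single ViPSC or TiPSC array was left out (limma adjusted p from 0.0627 to 0.188), and passed without ESC 1 or ESC 3. Aurkb was at 9.33, 9.32 and 9.13 in ViPSC, against 8.81, 8.58 and 8.97 in ESC, a difference of 0.48 ± 0.11 that did not pass (limma adjusted p = 0.0706). In TiPSC against ESC, 0 of 41 genes passed the limma test, where 0.632% of all genes did, and 4 of the 41 had an unadjusted p under 0.05, against 3284 of 18193 genes in all. Rrm1 had the lowest adjusted p, with a difference of 0.24 ± 0.08 (limma adjusted p = 0.187). Without ESC 1, 5 of the 41 genes passed, Pola1, Mki67, Bub1b, Plk1 and Rrm1, where 16.7% of all genes did.

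**Figure D3:**
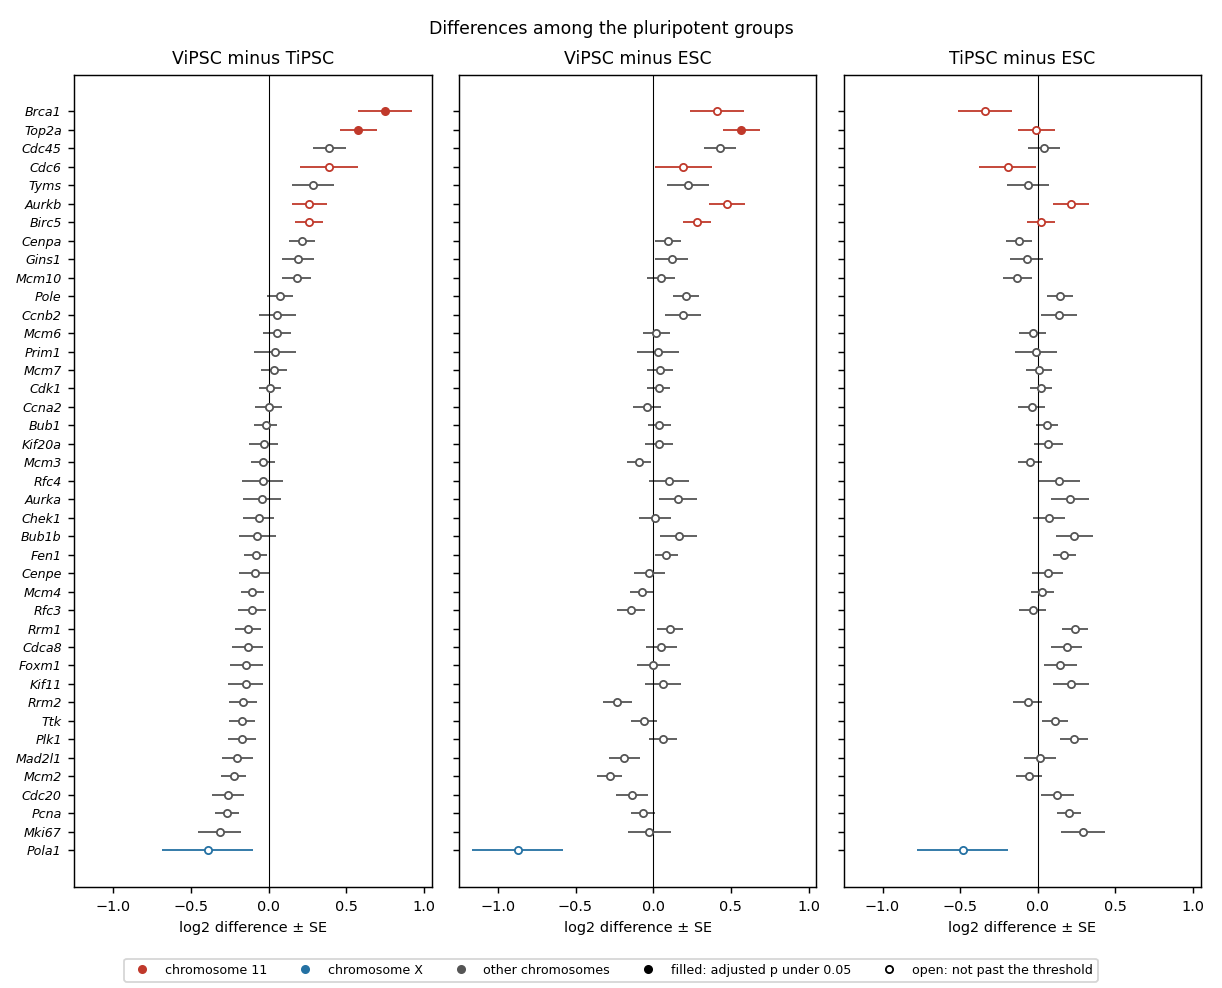
Difference between pluripotent groups for 41 genes (log2, horizontal axes) with its standard error from limma, where filled points passed an adjusted p of 0.05 and colours give the chromosome. Filled points are Top2a and Brca1 for ViPSC minus TiPSC and Top2a for ViPSC minus ESC, and the widest error is that of Pola1.

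Both genes that passed lie on chromosome 11, and so do Cdc6, Aurkb and Birc5. All 5 were higher in ViPSC than in TiPSC with no overlap of arrays, where 14.4% of all genes were. Their median difference was 0.39. The other 36 genes had a median of -0.07 and 0 passed the limma test by their brightest probe sets (5 at an unadjusted p under 0.05). Under alternative settings some of them passed. Cenpa was higher with the mean of its probe sets (limma adjusted p = 0.0470). Cdc45 was higher without dim genes and after centring (limma adjusted p = 0.0455 and 0.0484). Dimmer probe sets of Cenpa and Mcm3 also passed as higher (limma adjusted p = 0.0144 and 0.0297). With array weights Cdc45 passed as higher and Cdc20 as lower, among others. Chromosome 11 as a whole moved the same way as its 5 genes. Its 644 expressed genes (mean of at least 7) had a median of 0.44 for ViPSC minus TiPSC, 94.4% were positive and 31.5% passed, against a median of -0.06 over 6558 genes on the other autosomes. For ViPSC minus ESC the chromosome's median was 0.37, and for TiPSC minus ESC it was -0.08. Within the 644 genes, the ViPSC minus TiPSC difference of Brca1 was larger than that of 567, Top2a's than that of 469, Cdc6's than that of 260, Aurkb's than that of 145 and Birc5's than that of 142. Measured against their own chromosome, 3 of the 5 thus lay below its median. The part of the chromosome in these differences was not tested.

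ESC 3 was the highest ESC array in each of the 5 genes. Cdc6 was at 10.60 in ESC 3, against 9.75 and 9.92 in ESC 1 and ESC 2, and Brca1 at 10.50 against 9.79 and 9.78. The gap was small in Aurkb, at 8.97 against 8.81 and 8.58. The expressed genes of chromosome 11 had a median deviation from the mean of the 9 arrays of 0.13 in ESC 3, of -0.15 and -0.26 in ESC 1 and ESC 2, of 0.26 to 0.28 in ViPSC and of -0.18 to -0.15 in TiPSC. Across the 9 arrays the 10 pairs of these 5 genes had a median correlation of 0.84, against 0.11 for all 820 pairs of the 41 genes, as a description of arrays that share groups.

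Pola1, the catalytic subunit of the primase-coupled polymerase alpha and the X-linked gene of the list, had the widest spread of the 41 genes over the 9 arrays (SD 0.53). It was at 9.85 and 9.95 in ESC 2 and ESC 3, against 8.64 in ESC 1, and between 8.54 and 9.10 in ViPSC and TiPSC. The 253 expressed genes of the X chromosome had a median deviation of 0.59 in ESC 2 and 0.59 in ESC 3 and of -0.21 to -0.08 in the other 7 pluripotent arrays. The Pola1 difference of ViPSC minus ESC was -0.87 ± 0.29 and did not pass (limma adjusted p = 0.167, n = 3 each), and with ESC 1 left out it was -1.29 (limma adjusted p = 0.000291).

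**Figure D4:**
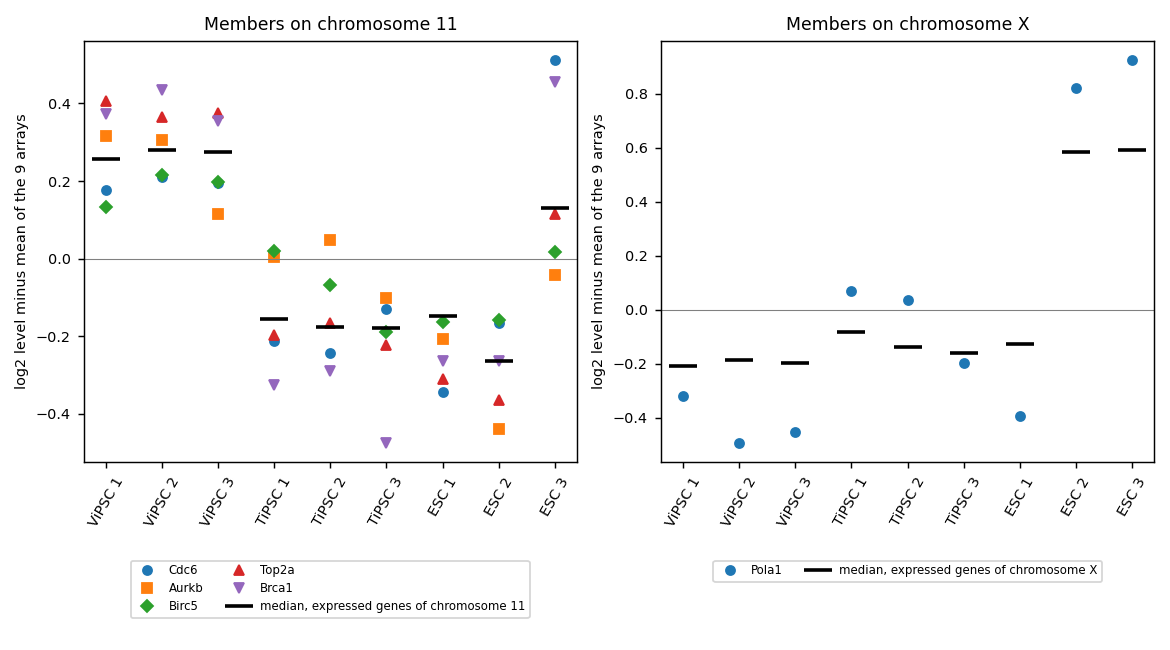
Level of the 5 chromosome 11 genes (left) and of Pola1 on the X chromosome (right) in the 9 pluripotent arrays, each as log2 level minus its mean over these arrays, with the median of the expressed genes of the same chromosome as a bar. The chromosome 11 bars are above 0 in ViPSC and ESC 3, and Pola1 and the X bar are above 0.5 in ESC 2 and ESC 3.

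Other genes of the same pathways were counted by list. Of 35 measured replication genes, 33 were at least 1 log2 unit higher in ViPSC than in VM and 31 in TiPSC than in TTF, with medians of 2.50 and 2.12. Of 56 mitosis genes, 45 and 48 were, with medians of 1.74 and 1.87. Of 13 genes of recombination and damage repair, 13 and 12 were, with medians of 3.05 and 2.52. Of 14 regulators, such as E2F, Myb-MuvB and NF-Y subunits, 5 and 7 were, with medians of 0.87 and 1.28. No gene of the 4 lists was lower by 1 log2 unit in either comparison.

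Among the pluripotent groups 9 of the 118 genes of these lists passed for ViPSC minus TiPSC, a share close to the 5.63% of all genes. In the comparisons of ViPSC and of TiPSC with ESC 0 passed the limma test, with 19 and 24 of 118 at an unadjusted p under 0.05, against 3121 and 3284 of 18193 genes in all. In the regulator list 3 of 14 fell in ViPSC relative to TiPSC, all of the E2F family. E2f7 and E2f8, atypical members that repress E2F targets, differed by -0.69 ± 0.11 (limma adjusted p = 0.0107) and -0.85 ± 0.15 (limma adjusted p = 0.0142). E2f3, an activator, differed by -0.60 ± 0.11 (limma adjusted p = 0.0165). E2f8 was at 8.46, 8.53 and 8.52 in ViPSC, against 9.41, 9.20 and 9.46 in TiPSC, and its groups did not overlap. In the mitosis list 1 of 56 rose, Dlgap5, a spindle protein (0.37 ± 0.09, limma adjusted p = 0.0392). There 3 fell: Spc25, a subunit of the Ndc80 kinetochore complex (-0.60 ± 0.11, limma adjusted p = 0.0173), Cenpk, a centromere protein (-0.39 ± 0.08, limma adjusted p = 0.0230), and Smc4, a condensin subunit named after its value was seen (-0.30). In the replication list Gins3, a GINS subunit on chromosome 8, fell (-0.67 ± 0.12, limma adjusted p = 0.0151). In the repair list Fancd2, of the Fanconi anaemia pathway, rose (0.44 ± 0.11, limma adjusted p = 0.0491). The expressed genes of chromosome 8 had a median of -0.23 for ViPSC minus TiPSC, and TiPSC 3 was the high array there, with a median deviation of 0.47. Gins3 itself was at 6.38, 6.26 and 6.43 in ViPSC, against 7.12, 6.83 and 7.15 in TiPSC, so that TiPSC 3 did not stand out.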

How the data were processed

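The 11 samples were measured as total RNA on Affymetrix mouse arrays. Deposited values are on a log2 scale after RMA, per the submitters' processing notes, and no version is given in the sources used here. Of 45101 probe sets, the 64 controls, 932 with several gene symbols and 9160 with none were left out. The probe set of highest mean level stood for its gene, without a filter on dim genes, which gave 18193 genes. Chromosomes came from a RefSeq table matched by gene identifier.

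Groups were taken from the sample titles. ViPSC, TiPSC and ESC were compared with limma 3.58.1 in R 4.3.3 (lmFit and eBayes, 1 mean per group, 1 spread over 9 arrays, 6 residual degrees of freedom per gene), with Benjamini-Hochberg adjustment over all 18193 genes and a threshold of 0.05. The fit was tested on simulated data. VM and TTF had 1 array each, so induced and source cells were compared without a test, by a difference of at least 1 log2 unit in every induced array. The lineage comparison used limma over all 11 arrays.

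The genes, the lists and the comparisons were chosen with earlier results of these data known. Genes were named by rule: those past the threshold (up to 12 per comparison), the 5 largest and 3 smallest differences from a source cell, and the genes with the most and least spread. Of a further list, the 3 called genes of lowest adjusted p were named. Alternatives were other choices of probe set, a filter on dim genes, centring, quantile normalization, only the arrays compared, array weights, a replicate block, leaving out chromosomes 8, 11, X and Y, a fold of 2 log2 units, and leaving out each array.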

Additional observations from a re-analysis of the deposited data

Results flagged for a closer look

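The difference between an induced line and its source cell was set against the same difference in the other lineage, as (ViPSC minus VM) minus (TiPSC minus TTF) in log2 units. The results below passed limma's test of that difference over 11 arrays with Benjamini-Hochberg adjustment, in which the lone VM and TTF arrays are assumed to vary like the replicated groups, so that the p values leave out the source cells' own spread. Among all genes 33.6% passed. In the helicase group the values were 1.66 for Cdc6, 1.37 for Mcm4, 0.82 for Cdc45 and 0.71 for Mcm10, all larger on the myocyte side. Of the polymerase group, Rfc3 gave 0.93 and Pole 0.69, whereas Pcna gave -0.65 and was thus larger on the fibroblast side. Rrm1, of nucleotide supply, gave 0.49. In the passenger complex Aurkb gave 1.003 and Cdca8 gave -0.70. Bub1, of the spindle checkpoint, gave 0.71. Of the motors and centromere proteins, Kif20a, a kinesin of late mitosis, gave 0.77, Kif11 gave -0.91 and Cenpa gave -1.80. Brca1 gave 1.39. In all 15 genes the level in VM minus that in TTF had the opposite sign, with sizes from 0.38 (Pcna) to 2.01 (Cenpa). The VM and TTF arrays enter both values, and VM minus TTF is subtracted in the tested one. The opposite sign is thus largely built in and is not a separate result.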

How the results depend on the processing

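The median differences from the source cells kept their direction under every alternative run for the counts and medians. The small differences among pluripotent groups did not keep their calls. Among single genes, Cenpa changed sign for ViPSC minus VM, from -0.49 to 0.45 over the alternatives. Of the 41 genes, 2, 1 and 0 passed for ViPSC minus TiPSC, ViPSC minus ESC and TiPSC minus ESC. With only the 6 arrays compared, 8 (4 higher, 4 lower) and 0 passed in the first 2 comparisons, and 2621, 73 and 1 of all genes, against 1024, 390 and 115. With array weights 9 (4 higher, 5 lower), 9 (6 higher, 3 lower) and 5 (4 higher, 1 lower) passed, and 3613, 3453 and 2913 of all genes. With every probe set tested, 4 of the 41 genes passed by at least 1 probe set for ViPSC minus TiPSC. There 1635 of all 34945 probe sets passed, a count of probe sets and not of genes. With the mean of a gene's probe sets, 65 of all genes passed for TiPSC minus ESC. With arrays centred on their median, 0 of the 41 passed for ViPSC minus ESC. Without chromosomes 8, 11, X and Y, on which both called genes lie, 0 and 0 of the remaining genes passed in the first 2 comparisons, and 607 and 184 of all genes. With one array left out in turn, 0 to 6, 0 to 7 and 0 to 5 of the 41 genes passed, and 207 to 1994, 22 to 2519 and 12 to 3038 of all genes. The high ends for the 41 genes came without ESC 1, and with any ViPSC or TiPSC array left out 0 passed in each comparison. The cause of these shifts was not tested. With 1 value per gene, Top2a and Brca1 kept their direction in each of these fits that held chromosome 11.

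The replicate number did not pair the arrays: correlations of the deviations of arrays with the same number ran from -0.12 to 0.12. With the number as a replicate block, 0 and 0 of the 41 genes passed in the first 2 comparisons, and 623, 103 and 9 of all genes.

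The array medians of the 41 genes had an SD of 0.010 in ViPSC, 0.13 in TiPSC and 0.092 in ESC, 0.094 pooled. The following medians moved by more than the SD of the group named first (pooled for VM), and those among pluripotent groups moved by less than the pooled SD. For ViPSC minus TiPSC the median of -0.04 became -0.069 with the mean of probe sets, -0.075 with array weights, -0.064 without the 4 chromosomes and -0.096 to -0.011 with one array left out. For ViPSC minus ESC the median of 0.04 became -0.0014 after centring, 0.029 after quantile normalization, 0.079 with array weights and 0.033 to 0.065 with one array left out. For ViPSC minus VM it became 1.99 with the mean of probe sets, 2.24 without dim genes, 2.14 after centring, 2.10 after quantile normalization and 2.20 to 2.23 with one array left out. For TiPSC minus TTF it became 1.79 with the mean of probe sets. For VM minus TTF the median of -0.12 became -0.012 after centring and -0.0082 after quantile normalization. At 2 log2 units, 22 of the 41 genes passed for TiPSC minus TTF and 1 for VM minus TTF, and 2402, 1913 and 1693 of all genes in the 3 source comparisons. Limma over 11 arrays, which takes the spread of the lone source arrays from the other groups, called 9334 and 8881 genes against the sources, all 41 listed genes among them in both, and says nothing of the spread of the source cells. Without dim genes 2879 genes passed the fold for VM minus TTF. RMA values near the bottom of the scale, as for Tyms, limit what can be seen there.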

Other observations

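The genes below belong to the pathway lists but were singled out after their values were seen, and they are given as values. Among the regulators, Mybl2 (B-Myb, a subunit of the Myb-MuvB complex that acts on CHR promoters) stood far above the others. It was at 11.12, 11.30 and 11.18 in ViPSC, against 4.83 in VM, and at 11.02, 11.07 and 10.90 in TiPSC, against 4.78 in TTF. Foxm1, which acts on the same promoters, averaged 0.50 above VM in ViPSC and 0.92 above TTF in TiPSC by its brightest probe set. In the replication list Orc1, the large subunit of the origin recognition complex, was at 9.35, 9.28 and 9.39 in ViPSC, against 4.50 in VM, and at 9.47, 9.50 and 9.31 in TiPSC, against 5.20 in TTF. In the repair list Msh6, of mismatch repair, was at 12.25, 12.19 and 12.16 in ViPSC, against 7.09 in VM, and at 12.09, 12.06 and 11.90 in TiPSC, against 8.41 in TTF. The source levels of Mybl2 and Orc1 lie near the bottom of the scale, so that their differences there are compressed.

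A few mitosis genes stood at the level of the myocytes. Pttg1 (securin) was at 12.14, 12.08 and 12.08 in ViPSC, against 12.29 in VM, and Zwint, a kinetochore protein, was at 10.30, 10.28 and 10.34 in ViPSC, against 10.69 in VM. Pttg1 also varied most widely within the embryonic stem cells, at 13.21, 10.91 and 11.75.

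Some listed genes on the X chromosome and on chromosome 8 were high in the arrays in which those chromosomes were. Cenpi, a centromere protein on the X chromosome, was at 9.02 and 9.42 in ESC 2 and ESC 3, against 8.21 in ESC 1 and 7.95 to 8.37 in ViPSC and TiPSC. Kif4, a kinesin on the X chromosome, was at 9.15 and 9.08 in ESC 2 and ESC 3 and at 8.52 in ESC 1. On chromosome 8, Tfdp1, the partner of E2F factors, was at 11.65 in TiPSC 3, against 10.97 and 10.83 in TiPSC 1 and TiPSC 2, and Ckap2, a spindle protein, at 10.82 against 10.16 and 10.25. Gins2, also on chromosome 8, was at 9.06 in TiPSC 2 and lower than that in TiPSC 3.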
